A study of Homo sapiens with 2 samples.

Results

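HMGA1, HMGA2, HMGB1, HMGB2 and HMGB3 encode high mobility group chromatin proteins, 2 of the HMGA family and 3 of the HMGB family. They were chosen by gene name in the deposited transcript table and are 5 of its 57110 gene entries. The study sequenced single-cell RNA from 1 pool, in equal parts, of the established human ovarian cancer lines COV504, IGROV1 and SK-OV-3, with no treatment named in the labels. The pool gave 1 Illumina library and 1 nanopore PromethION library, whose long reads can tell transcripts of a gene apart. Its purpose was to benchmark Isosceles, a package that quantifies transcripts from long reads. All values here come from the PromethION library. The 2462 cell barcodes of the Illumina library were the same 2462 barcodes, and no expression value of that library was used here.

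The labels do not say which barcode belongs to which line, so barcodes with at least 1000 counts were assigned by marker genes. A barcode was called ERBB2-high where ERBB2, NNMT, TSPAN1 and DHRS2 held at least 75% of the marker counts (648 barcodes, median 4953 counts). It was called RARRES2-high where RARRES2 and TMEM100 did (472 barcodes, median 6261.5 counts), and FOLR1-high where FOLR1, CLDN3, DEFB1 and CXCL14 did (765 barcodes, median 5289 counts). ERBB2-high barcodes were SK-OV-3-like: the ERBB2 neighbours GRB7, MIEN1, STARD3 and PGAP3 were all highest there, and CDKN2A, which SK-OV-3 cells lack, had 1 count against 0 in RARRES2-high and 88 in FOLR1-high. The other 2 lines were left unnamed. No markers were fixed for COV504, and the IGROV1 markers outside the assignment rule were divided in FOLR1-high barcodes, with PAX8 highest there and CDH1 lowest (11 counts against 143 in RARRES2-high). Of 7 blood and endothelial markers, none reached 50 counts over the 3 lines, and their highest count in a line was 8. A further 244 barcodes of sufficient depth fell to no line, 209 of them with mixed markers.

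With 1 library there were no replicates, so no test was run. Counts carry exact Poisson intervals, shares exact Clopper-Pearson intervals, and ratios exact intervals, all at 95%. They cover counting error only, since cells of 1 library are not replicates and it is not given whether molecular identifiers were collapsed.

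HMGA proteins bind the minor groove of AT-rich DNA through AT-hooks and shape chromatin architecture. They are abundant in embryonic and many tumour cells and scarce in most adult tissues. HMGB proteins bend DNA through HMG boxes and carry an acidic tail. HMGB1 is expressed nearly everywhere and acts as an alarmin when released from cells, whereas HMGB2 is typical of proliferating cells. The 3' untranslated region (3' UTR) of HMGA2 is a classic target of the let-7 microRNAs, which bind transcripts through their seed.

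HMGA2 has 7 transcripts in the table, and the results below turn on where they end. The ends of the members' transcripts are the same in GENCODE release 29 (GRCh38), from which sequences and exon structures were taken. The gene (ENSG00000149948) lies at chr12:65824131-65966295 on the plus strand. All 7 share exons 2 and 3, and they differ in what follows. ENST00000403681 continues through exon 4 (chr12:65951383-65951415) into the fifth exon (chr12:65963245-65966295), has a coding sequence of 109 codons, and carries a 3' UTR of 3003 bases. ENST00000541363 reads on past the end of exon 4 and has 99 codons, and ENST00000393577 joins exon 4 to another last exon (chr12:65952356-65952536) and has 118. The coding ends of these 3 forms are shown from the start of exon 4 to the base before the stop codon, with the shared 33 bases of exon 4 in lower case and the end of each form in capitals.
ENST00000403681: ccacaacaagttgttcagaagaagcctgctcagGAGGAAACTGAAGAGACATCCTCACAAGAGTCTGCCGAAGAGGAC
ENST00000541363: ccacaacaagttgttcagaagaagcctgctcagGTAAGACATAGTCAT
ENST00000393577: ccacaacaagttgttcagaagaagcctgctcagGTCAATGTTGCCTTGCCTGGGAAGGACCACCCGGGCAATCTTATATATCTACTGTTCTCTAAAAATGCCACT
The end of ENST00000403681 holds 15 codons, many of them GAA, GAG or GAC. ENST00000541363 adds 5 codons of its own and ENST00000393577 adds 24.

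The forms also differ in the let-7 sites they carry. The mature let-7a sequence from RefSeq (GRCh38.p14, chr9:94175962-94175983, plus strand) is shown with its seed, bases 2 to 8, in capitals. Below it are the 4 places in the 3' UTR of ENST00000403681 where the transcript matches the whole seed, with the match CTACCTC in capitals.
hsa-let-7a-5p: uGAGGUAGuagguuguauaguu
HMGA2 site 1, chr12:65963293-65963321: ggggcgccaacgttcgatttCTACCTCag
HMGA2 site 2, chr12:65964528-65964556: tatatccccactactcaataCTACCTCtg
HMGA2 site 3, chr12:65964940-65964968: actaattgacttgcaaagacCTACCTCca
HMGA2 site 4, chr12:65965793-65965821: tgtacaatcaaaacacactaCTACCTCtt
Searched on the transcript strand only, the shorter match TACCTC, which every CTACCTC contains, occurred 8 times in this 3' UTR. Among 3408 other genes with a 3' UTR of at least 3003 bases, 43.3% had a TACCTC in the first 3003 bases, the most in 1 gene was 6, and none had 8. ENST00000541363 and ENST00000425208 had 1 match each, and the other 4 HMGA2 transcripts had none. A match is a description of the letters, and let-7 itself was not measured.

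HMGA1 was the member whose level differed most between the lines. RARRES2-high barcodes held 3578 HMGA1 counts, or 1063 per 1000000 counts of the line (counts scaled this way are given as CPM below; 1028 to 1098). ERBB2-high barcodes held 1249 counts (363 CPM, 343 to 384), and FOLR1-high barcodes 333 counts (73.8 CPM, 66.0 to 82.1). The 3 intervals do not overlap. RARRES2-high exceeded FOLR1-high by a ratio of 14.4 (12.9 to 16.2) and ERBB2-high by 2.93 (2.75 to 3.13), and ERBB2-high exceeded FOLR1-high by 4.92 (4.36 to 5.57). HMGA1 was detected in 92.6% of RARRES2-high barcodes (median 6 counts), in 68.7% of ERBB2-high barcodes (median 1) and in 28.6% of FOLR1-high barcodes (median 0). After each barcode of at least 2000 counts was thinned to 2000 counts, these shares were 80.8%, 44.9% and 11.9%.

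In each pair of lines HMGA1 was the only 1 of 5 members at or past a ratio of 2. Such ratios were common: of 10201 genes with at least 50 counts over the 3 lines, 36% reached 2 in either direction between ERBB2-high and RARRES2-high, 37.2% between ERBB2-high and FOLR1-high, and 36.6% between RARRES2-high and FOLR1-high. The HMGA1 level in FOLR1-high was 6.94% of that in RARRES2-high. Of 2584 genes with at least 200 counts in RARRES2-high, 127 (4.91%) had a smaller remainder in FOLR1-high. RNA free in the pool can put counts into the barcodes of another line. Its part in the HMGA1 counts of FOLR1-high barcodes was not tested. The 209 barcodes with mixed markers had 739 CPM of HMGA1, between the levels of RARRES2-high and ERBB2-high.

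HMGA2 had the opposite order. FOLR1-high barcodes had the highest level (361 counts, 80.0 CPM, 71.9 to 88.6), followed by ERBB2-high (201 counts, 58.4 CPM, 50.6 to 67.0) and RARRES2-high (146 counts, 43.4 CPM, 36.6 to 51.0). The intervals of ERBB2-high and RARRES2-high overlap narrowly, and their ratio of 1.35 has an interval above 1 (1.08 to 1.68). FOLR1-high exceeded RARRES2-high by 1.84 (1.52 to 2.25) and ERBB2-high by 1.37 (1.15 to 1.64). HMGA2 was sparse, detected in 32.8% of FOLR1-high, 23.5% of ERBB2-high and 25.2% of RARRES2-high barcodes. In the line with the least HMGA1, HMGA2 was therefore highest, and in the line with the most HMGA1 it was lowest.

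The HMGA2 order between ERBB2-high and FOLR1-high rested on some of the FOLR1-high barcodes. The 258 FOLR1-high barcodes with more CXCL14 than DEFB1 counts had 113 CPM of HMGA2 (96.1 to 132), and the 189 with more DEFB1 had 54.4 CPM (42.2 to 68.9). The remaining 318, with equal counts of both, had 72.2 CPM. Against the DEFB1 subset, ERBB2-high was the higher of the pair, at a ratio of 1.07 with overlapping intervals. This split was chosen after the data were seen, and both genes are part of the rule that defines FOLR1-high. HMGA1 differed less between the subsets, with 75.3 CPM (61.7 to 91.1) and 56.0 CPM (43.6 to 70.7).

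The 3 HMGB genes were all highest in RARRES2-high and lowest in ERBB2-high, by ratios below 2. HMGB1 had 1754 CPM in RARRES2-high (1709 to 1799), 1357 in FOLR1-high (1323 to 1391) and 1242 in ERBB2-high (1205 to 1280), and it was detected in 94.3% to 96.6% of barcodes of every line. HMGB2 had 423 CPM (402 to 446), 305 (289 to 322) and 270 (253 to 288) in the same order. HMGB3, an X-linked paralog, had 125 CPM (113 to 138), 107 (97.2 to 116) and 89.8 (80.0 to 100.4). The largest HMGB ratio between lines was 1.57 (1.44 to 1.71), for HMGB2 in RARRES2-high over ERBB2-high. By the mean CPM of single barcodes the HMGB2 level of ERBB2-high was 0.464 of that of RARRES2-high, past the limit of 2. HMGB3 intervals of FOLR1-high overlap those of both other lines. The place of ERBB2-high as the lowest did not hold for HMGB2 against the FOLR1-high barcodes with more CXCL14, where the ratio of ERBB2-high over FOLR1-high turned from 0.885 to 1.06. These FOLR1-high barcodes had 256 CPM of HMGB2 (230 to 284), an interval that overlaps that of ERBB2-high.

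**Figure D1:**
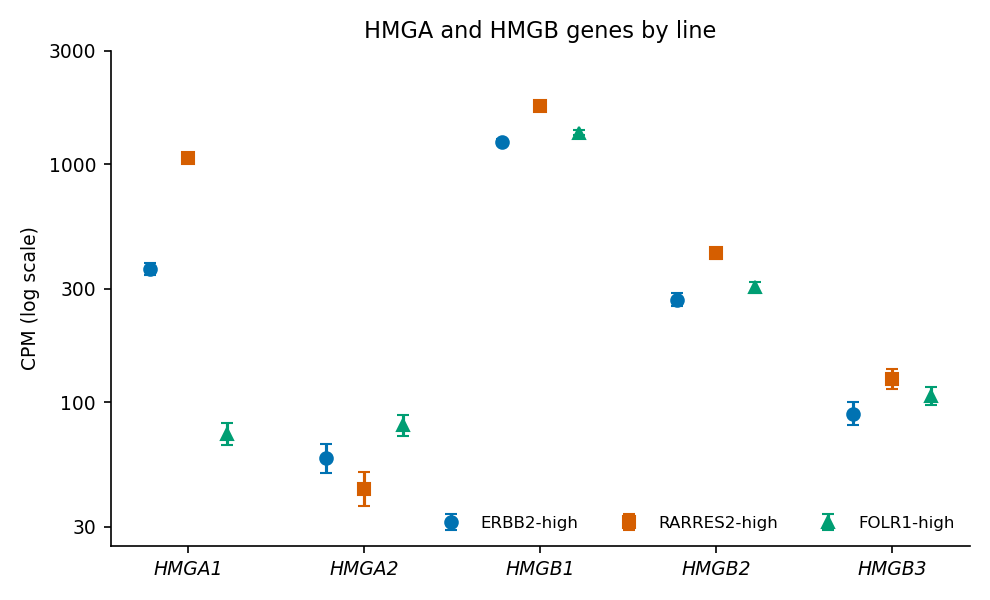
CPM (log axis) of the 5 genes in ERBB2-high, RARRES2-high and FOLR1-high barcodes, with exact 95% Poisson intervals as bars (smaller than the symbol for the highest levels). HMGA1 spans 73.8 to 1063 CPM, HMGA2 runs the other way from 43.4 to 80.0 CPM, and the HMGB genes lie within a ratio of 1.57 in these summed counts.

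Scaling between lines shifts the ratios, and for the HMGB genes by amounts as large as some differences between lines. The median gene was higher in ERBB2-high than in RARRES2-high by 0.22 on the log2 scale, higher in ERBB2-high than in FOLR1-high by 0.45, and higher in RARRES2-high than in FOLR1-high by 0.19. Mitochondrial genes took 7.07% of counts in FOLR1-high against 2.93% and 3.11% in ERBB2-high and RARRES2-high. They were left out of the total only together with ribosomal protein genes, so their own part in the ratios was not tested. Without both groups, the HMGA1 ratio of ERBB2-high over FOLR1-high went from 4.92 to 3.80. Those of HMGB1 and HMGB2 went from 0.916 to 0.708 and from 0.885 to 0.684. In RARRES2-high over FOLR1-high, HMGB1 went from 1.29 to 1.04 and HMGB2 from 1.39 to 1.12. Relative to the median gene, HMGA1 was 3.66 log2 units higher in RARRES2-high than in FOLR1-high, and the same difference was -1.08 for HMGA2. Against the median gene, HMGB1, HMGB2 and HMGB3 differed between RARRES2-high and FOLR1-high by 0.18, 0.28 and 0.04 log2 units. The same 3 genes lay further apart in the other pairs, with -0.72, -0.87 and -0.70 for ERBB2-high minus RARRES2-high and -0.58, -0.63 and -0.70 for ERBB2-high minus FOLR1-high. Without mitochondrial and ribosomal protein genes in the total, the HMGB3 ratio of RARRES2-high over FOLR1-high turned from 1.17 to 0.945, and HMGA2 passed a ratio of 2 between these lines. No other member changed direction with the scaling.

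Transcript use set HMGA2 apart from the other members. The form ending in the fifth exon, ENST00000403681, took 88.6% of HMGA2 counts in FOLR1-high (84.9 to 91.7), 60.7% in ERBB2-high (53.6 to 67.5) and 53.9% in RARRES2-high (45.7 to 62.4). The interval of FOLR1-high lies above both others, which overlap each other. The differences were 28.0 percentage points against ERBB2-high (20.2 to 35.7) and 34.7 points against RARRES2-high (25.5 to 43.5). The comparison used genes with more than 1 listed transcript, an entry of a single name and at least 50 counts in both lines. Of 4477 such genes in ERBB2-high and FOLR1-high, 0.692% had as large a difference in the share of 1 transcript. Of 4116 such genes in RARRES2-high and FOLR1-high, 0.753% did. Both differences kept their direction under every alternative run, between 22.1 and 28.98 points and between 33.1 and 35.7 points.

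The minor HMGA2 forms differed by line as well. ENST00000541363, which reads past exon 4, took 21.5% of counts in ERBB2-high (15.9 to 27.7), 14.1% in RARRES2-high (9.13 to 21.1) and 6.17% in FOLR1-high (3.86 to 9.08). ENST00000393577, with its own last exon, took 22.1% in RARRES2-high (15.5 to 29.5), 4.48% in ERBB2-high (2.07 to 8.33) and 0.167% in FOLR1-high (0.00701 to 1.53). Its 32.3 estimated counts in RARRES2-high came from 31 barcodes with at most 2 counts each. Where 90% of the marker counts were required for a line, 285 of the RARRES2-high barcodes remained and the share of ENST00000393577 there was 10.1%, on 72 HMGA2 counts. The corresponding share in ERBB2-high was 3.80%. By the main rule the difference between these lines was 17.6 points (9.98 to 25.4). The 4 forms that end between exons 3 and 4 together took 13.3% of counts in ERBB2-high, 9.81% in RARRES2-high and 5.05% in FOLR1-high.

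Level and transcript use can be joined. ENST00000403681, the form with 4 whole seed matches, had 70.9 CPM in FOLR1-high (63.3 to 79.1), 35.4 CPM in ERBB2-high (29.4 to 42.3) and 23.4 CPM in RARRES2-high (18.6 to 29.2). The other 6 forms together had 9.10 CPM in FOLR1-high (6.52 to 12.3), 23.0 CPM in ERBB2-high (18.2 to 28.6) and 19.97 CPM in RARRES2-high (15.4 to 25.3). ENST00000403681 was therefore 3.03 times as high in FOLR1-high as in RARRES2-high (2.35 to 3.91), while the other forms were 2.19 times as high in RARRES2-high as in FOLR1-high (1.46 to 3.32). The higher HMGA2 level of FOLR1-high thus lay in ENST00000403681 and not in the sum of the other forms, and this grouping of the forms was chosen after their shares were seen. Reads were assigned to HMGA2 forms with little sharing, since 89.97% of the gene's counts were given whole to 1 transcript. The antisense gene RPSAP52, which overlaps HMGA2, had 0 counts.

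**Figure D2:**
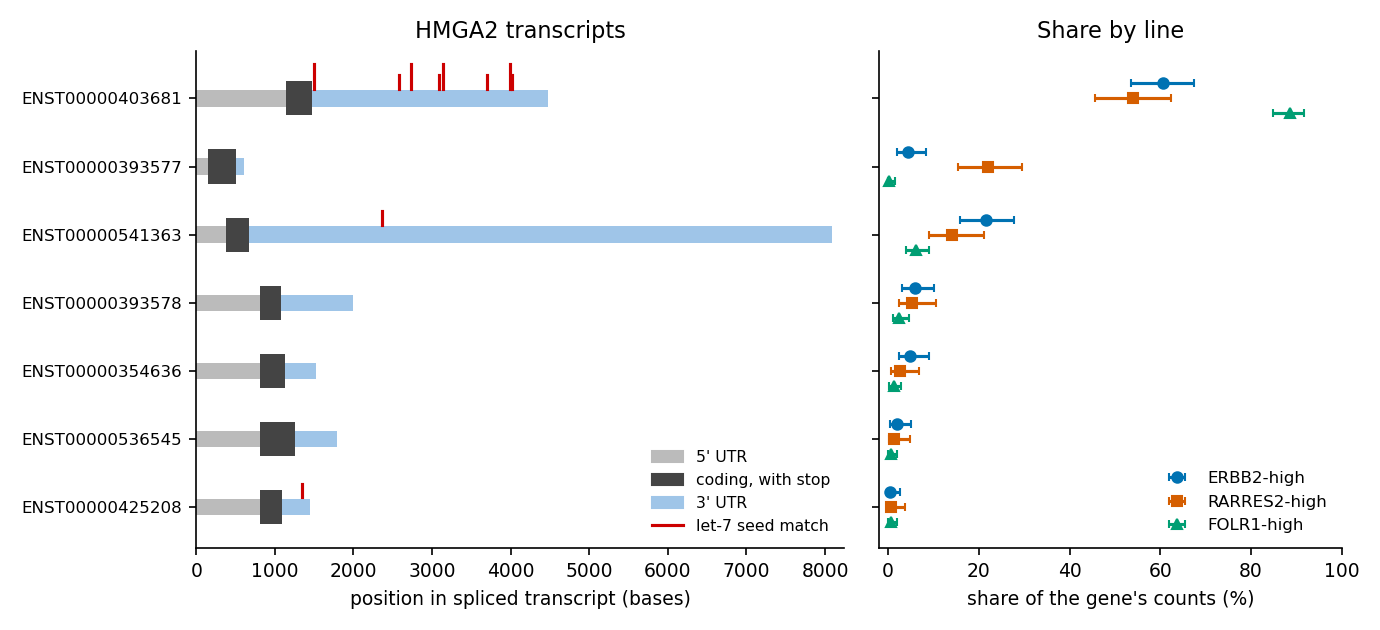
Left, the 7 spliced HMGA2 transcripts to scale in bases, with tall red ticks for the match CTACCTC and short ticks for TACCTC alone in the 3' UTR; right, the share of HMGA2 counts (%) of each transcript in the 3 lines with exact 95% intervals. ENST00000403681 carries 8 of the ticks and takes 88.6% of counts in FOLR1-high against 60.7% and 53.9% in ERBB2-high and RARRES2-high.

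HMGA1 (ENSG00000137309, chr6:34236873-34246231, plus strand) has 5 transcripts, of which 2 have 107 codons and 3 have 96. They correspond to the proteins HMGA1a and HMGA1b, which differ by an insert between AT-hooks. The 33 bases that make the difference (chr6:34240883-34240915, 11 codons) come from a longer version of 1 exon and are shown in capitals with 20 bases of transcript on either side.
HMGA1 long exon: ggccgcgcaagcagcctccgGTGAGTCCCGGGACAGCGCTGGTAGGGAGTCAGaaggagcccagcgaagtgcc
The 107-codon forms took 56.4% of HMGA1 counts in RARRES2-high (54.7 to 58.0), 46.1% in ERBB2-high (43.2 to 48.8) and 43.5% in FOLR1-high (38.1 to 49.1). Only 7.44% of HMGA1 counts were given whole to 1 transcript, so these shares rest mostly on how the software divided shared reads. Among the whole counts the order differed, with 39.6% in RARRES2-high (103 of 260), 44.1% in ERBB2-high (45 of 102) and 54.5% in FOLR1-high (12 of 22), and all 3 intervals overlap. Which HMGA1 form dominates in a line is therefore not settled by these counts.

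By the same measure, 2 of 5 members (HMGA1 and HMGA2) differed by at least 10 points in 1 transcript between ERBB2-high and RARRES2-high, where 12.6% of the 4239 genes compared did. Neither did so where 90% of the marker counts were required (-9.48 and -6.32 points, ERBB2-high minus RARRES2-high), and the HMGA1 difference turned from -10.2 to 3.53 points with whole counts only. HMGA2 alone did so between ERBB2-high and FOLR1-high, against 12.1% of genes, and HMGA1 and HMGA2 did between RARRES2-high and FOLR1-high, against 15.2%. With whole counts only, HMGA1 could not be compared between these 2 lines, since its 22 whole counts in FOLR1-high lie under the minimum of 50. HMGB1 (ENSG00000189403, chr13:30456704-30617597, minus strand) was given mostly to 1 transcript: ENST00000341423 took 97.5% in ERBB2-high, 98.8% in RARRES2-high and 98.7% in FOLR1-high. These shares too rest on how shared reads were divided, and with whole counts only the difference between ERBB2-high and FOLR1-high went from -1.17 to -7.80 points. In HMGB2 (ENSG00000164104, chr4:173331695-173335125, minus strand), ENST00000296503 took 82.5%, 83.7% and 91.9% in the same order. In HMGB3 (ENSG00000029993, chrX:150983286-150990775, plus strand), ENST00000325307, with a 3' UTR of 2861 bases, took 92.1%, 95.0% and 96.8%. Whole counts were 1.63% for HMGB1, 25.8% for HMGB2 and 81.0% for HMGB3. HMGA and HMGB genes have many processed pseudogenes, and the 83 pseudogene entries of the table together held 29 counts.

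By cell cycle class, the HMGB genes were higher in G2/M-high than in low barcodes of every line, HMGB1 in RARRES2-high by only 1.16, while the ratios of HMGA1 and HMGA2 lay between 0.882 and 1.12. Within each line, barcodes with at least 2000 counts were ranked by the share of counts in 20 G2/M genes, none of them a member. The highest 25% were called G2/M-high (152, 110 and 183 barcodes of ERBB2-high, RARRES2-high and FOLR1-high). Of the rest, about as many with the highest share in 19 S phase genes were called S-high, and the others low. In ERBB2-high the S-high class is poorly named, since the S phase genes took 0.0692% of its counts against 0.177% in G2/M-high. In RARRES2-high and FOLR1-high they took more in S-high (0.261% and 0.214%) than in G2/M-high (0.109% and 0.154%). These classes are ranges of a score and not cell types: 9, 32 and 23 barcodes lay within 10% of the boundary. In ERBB2-high, 3 of 5 members (HMGB1, HMGB2 and HMGB3) were at least 2 times as high in G2/M-high as in low barcodes, where 6.07% of genes were. In FOLR1-high 2 of 5 were (HMGB2 and HMGB3), against 5.99% of genes, and in RARRES2-high none was, against 2.13%. The counts of these last 2 lines differed in a version where every barcode was thinned once to 2000 counts and weighted equally: HMGB2 (2.33) and HMGB3 (2.41) passed in RARRES2-high, and in FOLR1-high HMGB3 fell below 2 (1.94).

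HMGB2 differed most between classes. In ERBB2-high it had 807 CPM in G2/M-high barcodes (754 to 863), 28.2 CPM in S-high (17.7 to 42.7) and 22.3 CPM in low barcodes (15.5 to 31.2). FOLR1-high had 837 CPM (787 to 889), 180 CPM (156 to 205) and 51.7 CPM (42.2 to 62.6). RARRES2-high had 598 CPM (548 to 650), 469 CPM (421 to 522) and 314 CPM (288 to 342). The ratio of G2/M-high to low was thus 36.1 in ERBB2-high (25.7 to 52.5), 16.2 in FOLR1-high (13.2 to 19.99) and 1.90 in RARRES2-high (1.68 to 2.15), with no overlap of the intervals. With the highest 10% of the G2/M share in place of the highest 25%, the ratios were 48.3, 9.96 and 1.96. G2/M-high barcodes held 93.9% of the HMGB2 counts of ERBB2-high, 76.7% of those of FOLR1-high and 38.0% of those of RARRES2-high, against 31.8%, 28.1% and 27.05% of all counts. S-high barcodes exceeded low barcodes by 3.48 in FOLR1-high (2.74 to 4.44) and by 1.49 in RARRES2-high (1.30 to 1.71), while in ERBB2-high, where S-high holds few S phase counts, the ratio of 1.26 had an interval that includes 1 (0.703 to 2.22). At the limit of 2, HMGB2 in FOLR1-high was the only member higher in S-high than in low barcodes, where 4.19% of genes were, and in ERBB2-high (1.91% of genes) and RARRES2-high (1.98%) none was.

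HMGB1 and HMGB3 showed the same direction, with smaller ratios than HMGB2 in ERBB2-high and FOLR1-high. In RARRES2-high the intervals of HMGB2 and HMGB3 overlap, and HMGB3 had the larger ratio with 90% of the marker counts (1.82 against 1.71). HMGB1 in G2/M-high over low barcodes had ratios of 2.73 in ERBB2-high (2.55 to 2.93), 1.84 in FOLR1-high (1.74 to 1.95) and 1.16 in RARRES2-high (1.09 to 1.24), in the order of the HMGB2 ratios. In RARRES2-high 33.3% of genes had as large a ratio, and the interval overlaps that of HMGA1. HMGB3 had ratios of 2.87 (2.20 to 3.77), 2.66 (2.14 to 3.31) and 1.82 (1.45 to 2.27), whose intervals overlap between neighbours. In G2/M-high barcodes the HMGB3 levels of the lines lay close together, from 158 CPM in ERBB2-high to 182 CPM in FOLR1-high.

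The ratios of HMGA1 and HMGA2 were near 1 by these classes, but not in every range of the G2/M share. The HMGA1 ratio of G2/M-high over low was 1.06 in ERBB2-high (0.929 to 1.21), 1.09 in RARRES2-high (1.01 to 1.18) and 1.04 in FOLR1-high (0.783 to 1.37). Over all genes the median ratio was 1.03, 1.05 and 1.07. With the highest 10% of the G2/M share, the HMGA1 ratio fell below 1 in ERBB2-high (0.737) and FOLR1-high (0.652) and was 1.11 in RARRES2-high, and the HMGA2 ratios were 1.22 in ERBB2-high, 0.801 in FOLR1-high and 0.825 in RARRES2-high. With barcodes thinned to 2000 counts the HMGA1 ratio in FOLR1-high was instead 1.37. The HMGA2 ratios were 1.05 (0.751 to 1.48), 0.882 (0.580 to 1.32) and 1.12 (0.853 to 1.46), so that at this depth no difference was detectable within those bounds. In S-high over low barcodes of FOLR1-high, HMGA2 had a ratio of 1.42 (1.10 to 1.82). The HMGA1 gap between lines was present in every class, with 1153, 977 and 1059 CPM in G2/M-high, S-high and low barcodes of RARRES2-high and 70.05, 86.9 and 67.6 CPM in FOLR1-high.

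**Figure D3:**
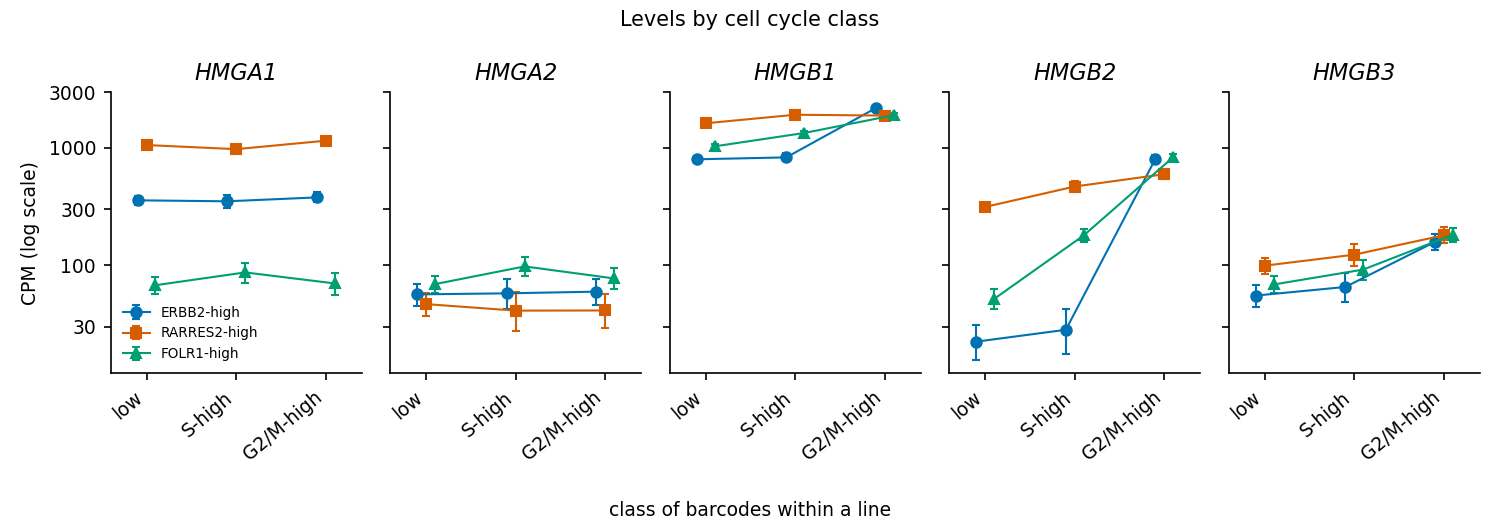
CPM (log axis) of each gene in low, S-high and G2/M-high barcodes of the 3 lines, with exact 95% Poisson intervals. HMGB2 climbs from 22.3 to 807 CPM in ERBB2-high and from 314 to 598 CPM in RARRES2-high, while HMGA2 in FOLR1-high has 69.1, 97.8 and 77.2 CPM in low, S-high and G2/M-high barcodes.

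The classes do not stand for equal stages in the 3 lines. Low barcodes of RARRES2-high still had 0.256% of counts in the G2/M genes, against 0.0806% in FOLR1-high and 0.0176% in ERBB2-high, and the boundary of G2/M-high was at 0.554%, 0.274% and 0.127%. The same ranges of the G2/M share were therefore applied to every line, a comparison added after the data were seen. Below 0.05% HMGB2 had 86.3 CPM in RARRES2-high (55.9 to 127), 44.7 in FOLR1-high (31.7 to 61.4) and 22.5 in ERBB2-high (16.4 to 30.2). From 0.05% to 0.2% it had 210, 106 and 114 CPM, and from 0.2% to 0.5% it had 459, 352 and 581 CPM. At 0.5% and above it had 571 CPM in RARRES2-high (526 to 618), 1032 in FOLR1-high (964 to 1103) and 1045 in ERBB2-high (964 to 1131).

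Within every line HMGB2 was higher in each range than in the one below. RARRES2-high thus had the highest HMGB2 level of the lines in both ranges below 0.2%, and the lowest at 0.5% and above. Below 0.05% its interval overlaps that of FOLR1-high, on 47 RARRES2-high barcodes with few G2/M counts each. The ranges do not equalise depth, since the median in RARRES2-high rose from 4874 counts in the lowest range to 7829.5 in the highest. From 0.2% to 0.5% FOLR1-high was lowest (310 to 399). HMGA1 followed other courses in these ranges. In ERBB2-high it had 525 CPM from 0.2% to 0.5% (454 to 603) and 268 CPM at 0.5% and above (227 to 313), and in RARRES2-high it had 742 CPM in the lowest range (646 to 848) and 1177 CPM in the highest (1112 to 1244). From the lowest range to the highest, HMGB2 in RARRES2-high spanned 86.3 to 571 CPM, against 22.5 to 1045 CPM in ERBB2-high. The lines also filled the ranges differently: 64.0% of ERBB2-high barcodes lay below 0.05%, against 22.5% of FOLR1-high and 10.6% of RARRES2-high. In the top range the mean G2/M share itself was 1.10% in ERBB2-high, 0.955% in FOLR1-high and 0.748% in RARRES2-high, and its part in the HMGB2 gap was not tested.

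**Figure D4:**
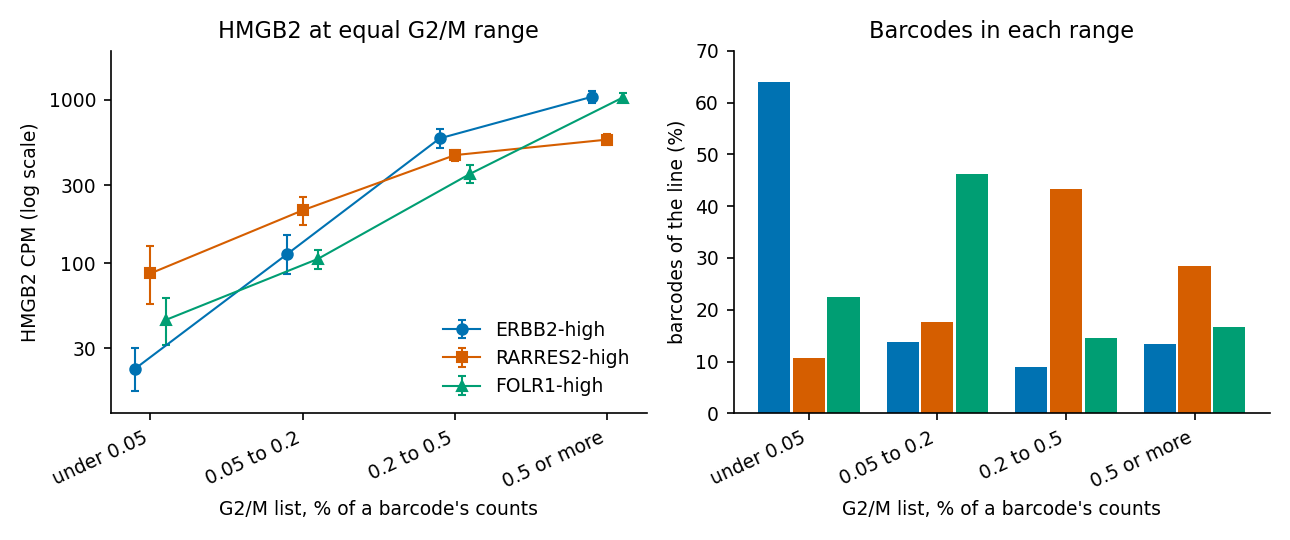
Left, HMGB2 CPM (log axis) with exact 95% Poisson intervals in barcodes of the same range of the G2/M share in each line; right, the percent of each line's barcodes in each range. RARRES2-high has the flattest course, from 86.3 to 571 CPM, and 64.0% of ERBB2-high barcodes sit in the lowest range.

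In ERBB2-high and FOLR1-high, HMGB2 also had the highest variance over the mean of the members across single barcodes. At 2000 counts per barcode it was detected in 48.4% of RARRES2-high barcodes (43.7 to 53.2), 31.7% of FOLR1-high (28.3 to 35.2) and 18.8% of ERBB2-high (15.8 to 22.2). Before thinning the shares were 81.2%, 47.6% and 28.9%, and 30, 32 and 42 shallower barcodes were left out. The mean was 0.796, 0.547 and 0.394 counts, so the lines differed less in mean than in detection. The variance over the mean, which is 1 for pure counting noise, was 1.38 in RARRES2-high, 1.99 in FOLR1-high and 2.61 in ERBB2-high. This measure depends also on the level of a gene, so it does not rank members of unlike level by unevenness. The corresponding values for HMGB3 lay between 0.975 and 1.07 and those for HMGA1 between 1.34 and 1.46. HMGA2 had 1.06 in ERBB2-high, 1.15 in RARRES2-high and 1.28 in FOLR1-high. In RARRES2-high HMGA1 had the highest value, and HMGB1, with 2.08 in ERBB2-high, 1.38 in RARRES2-high and 1.46 in FOLR1-high, equalled HMGB2 there. As a reference for free RNA from FOLR1-high cells, IGF2BP1 was found in 9.004% of thinned FOLR1-high barcodes and in none of the 606 ERBB2-high and 442 RARRES2-high barcodes. LIN28A and CDKN2A, also highest in FOLR1-high, were each found in 0.165% of ERBB2-high and in none of the RARRES2-high barcodes. IGF2BP1, LIN28A and CDKN2A had only 52.0, 24.8 and 19.5 CPM in FOLR1-high itself, so a small carry-over could go unseen. These genes say nothing of RNA reaching FOLR1-high barcodes, and the amount of free RNA was not tested.

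**Figure D5:**
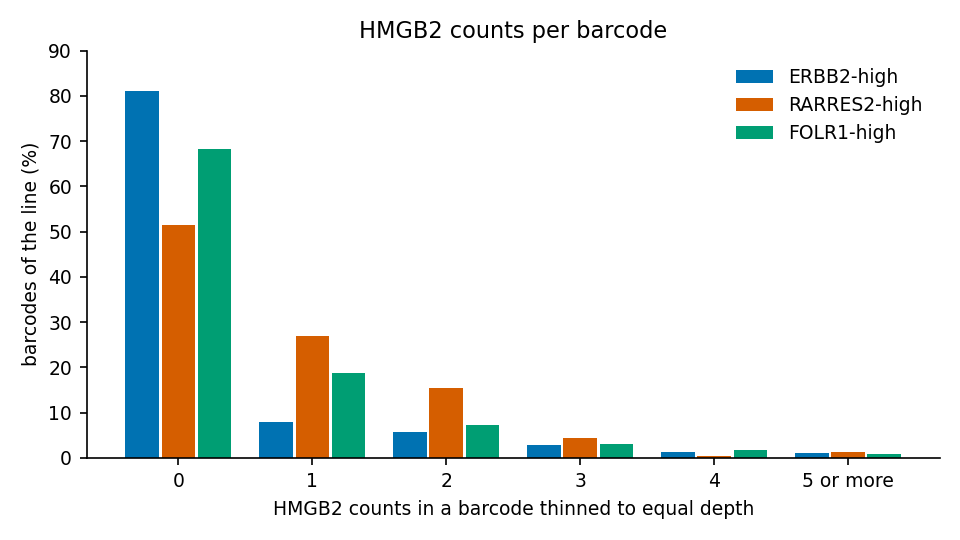
Percent of barcodes of each line by their number of HMGB2 counts after thinning to 2000 counts. ERBB2-high has 81.2% of barcodes at 0, against 68.3% in FOLR1-high and 51.6% in RARRES2-high, whose barcodes sit mostly at 1 or 2 counts when HMGB2 is detected.

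The genes most like each member were taken from 1850 genes with at least 200 counts in every line, by the Pearson correlation across barcodes of log-transformed scaled counts, averaged over the lines (606, 442 and 733 barcodes). Barcodes of a line share the library and differ in depth, so these values are descriptions. For HMGB2 the nearest were NUSAP1 (0.61), CENPF (0.61), TPX2 (0.61), MKI67 (0.60) and TOP2A (0.58), all genes of mitosis or proliferation. All of them are among the G2/M genes that define the classes above. The correlation of HMGB2 with MKI67 was 0.79 in ERBB2-high, 0.65 in FOLR1-high and 0.37 in RARRES2-high, the same order as the class ratios. Since MKI67 helps define the classes, this is no separate support for them. NUSAP1 did not keep that order, with 0.69 in ERBB2-high, 0.70 in FOLR1-high and 0.44 in RARRES2-high. For HMGB1 the nearest were TUBA1B (0.49), H2AFZ (0.44), HMGN2 (0.40), BIRC5 (0.40) and PTTG1 (0.40). For HMGB3 they were CENPF (0.29), CCNB1 (0.28), CDKN3 (0.27), PTTG1 (0.27) and CDC20 (0.26). BIRC5, PTTG1, CENPF, CCNB1 and CDC20 are also among those G2/M genes. HMGB2 correlated with HMGB1 at 0.38, with HMGB3 at 0.23 and with HMGA1 at 0.05. For HMGA1 they were TNFRSF12A (0.22), COTL1 (0.19), CCND1 (0.19), ACTB (0.19) and S100A16 (0.18). In RARRES2-high, where HMGA1 was highest, its correlation was 0.39 with ACTB, 0.35 with COTL1 and 0.33 with S100A16. The same correlations were 0.10, 0.14 and 0.24 in ERBB2-high and 0.06, 0.09 and -0.02 in FOLR1-high. CCND1 was instead highest in ERBB2-high (0.32, against 0.18 in RARRES2-high and 0.07 in FOLR1-high). TNFRSF12A differed less, with 0.27 in RARRES2-high, 0.22 in ERBB2-high and 0.17 in FOLR1-high. The correlations of HMGA1 and HMGB3 are weak, which in sparse counts is no finding, and HMGA2 had too few counts for the comparison.

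Other genes of the pathways were taken from lists. Of 14 genes around let-7 and its targets, 11 reached 50 counts, LIN28B did not, and TUT4 and TUT7 were matched to no entry by these symbols. The 11 include LIN28A, which blocks let-7 maturation, and IGF2BP1, IGF2BP2 and IGF2BP3, RNA-binding proteins known to protect let-7 targets such as HMGA2 transcripts. Between ERBB2-high and FOLR1-high, 4 of 11 were at least 2 times as high in FOLR1-high (9.92% of all genes) and 1 in ERBB2-high (27.3%). The 4 were LIN28A, IGF2BP1, IGF2BP3 and ARID3B, and the 1 was DGCR8. Between RARRES2-high and FOLR1-high, 3 were higher in FOLR1-high (13.9% of all genes), namely LIN28A, IGF2BP1 and ARID3B, and 0 in RARRES2-high (22.7%). Between ERBB2-high and RARRES2-high, DGCR8, DIS3L2 and LIN28A passed in ERBB2-high (22.5% of all genes), LIN28A with only 1 count against 0, and IGF2BP3 in RARRES2-high (13.5%). ARID3B, DGCR8 and DIS3L2 are named because of their counts.

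IGF2BP1 had 52.0 CPM in FOLR1-high and 1 count in each other line. LIN28A had 112 counts (24.8 CPM) in FOLR1-high, 1 in ERBB2-high and 0 in RARRES2-high, where 0 counts allow up to 1.10 CPM. IGF2BP3 had 78.6 CPM in FOLR1-high, 46.9 in RARRES2-high and 7.26 in ERBB2-high, and IGF2BP2 had 148, 137 and 101 CPM. DICER1, which cuts microRNA precursors, had 37.7, 22.3 and 38.6 CPM in the same order, and the let-7 target NRAS had 23.5, 33.9 and 37.8 CPM. The line with the most HMGA2, 88.6% of it in the form with 4 whole seed matches, thus had the highest levels of LIN28A and of the 3 IGF2BP genes. LIN28B, the paralog of LIN28A that also blocks let-7, ran the other way, with 9 counts (2.67 CPM) in RARRES2-high and 0 in FOLR1-high and ERBB2-high, where 0 counts allow up to 0.817 and 1.07 CPM. With 3 lines in 1 library, a link between them was not tested.

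Of 18 other HMG-box, HMGN and linker histone genes, 16 reached 50 counts, HMGN4 did not, and SMARCE1 was matched to no entry of its own. Between ERBB2-high and RARRES2-high 3 were at least 2 times as high in ERBB2-high (22.5% of all genes) and 1 in RARRES2-high (13.5%). The 3 were HMGN5, HMG20B and UBTF, and the 1 was H1F0. Against FOLR1-high, ERBB2-high had UBTF and H1FX higher (27.3% of all genes) and HMGN5 and H1F0 lower (9.92%). RARRES2-high had HMGN3, H1F0 and H1FX higher than FOLR1-high (22.7%) and HMGN5 and HMG20B lower (13.9%). HMGN5, HMG20B, H1F0 and H1FX are named because of their counts. The nucleosome-binding proteins HMGN2 and HMGN1 stayed within 443 to 557 CPM and 349 to 463 CPM, and HMGN3 had 297 CPM in ERBB2-high, 438 in RARRES2-high and 183 in FOLR1-high. SSRP1 and SUPT16H, subunits of the histone chaperone FACT, had 138, 252 and 126 CPM and 163, 147 and 214 CPM. UBTF, a factor of ribosomal RNA transcription, had 150, 65.6 and 72.9 CPM.

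Among receptors of extracellular HMGB1, AGER and the TLR genes had few counts. AGER, which encodes RAGE, had 1, 2 and 5 counts in ERBB2-high, RARRES2-high and FOLR1-high, TLR4 had 0, 4 and 0, TLR2 had 3, 0 and 0, and TLR9 had none. Of the 12 genes of this list, 6 reached 50 counts. CD24, a surface protein that binds HMGB1, had 438 CPM in ERBB2-high, 46.6 in RARRES2-high and 1718 in FOLR1-high. APEX1, a DNA repair enzyme, had 148, 70.1 and 244 CPM, and the nuclear exporter XPO1 had 131, 175 and 114 CPM. THBD, which encodes the HMGB1-binding thrombomodulin, had 34.9 and 19.6 CPM in ERBB2-high and RARRES2-high and 0 counts in FOLR1-high. The chemokine receptor CXCR4 had 0.290, 6.83 and 21.7 CPM. Between RARRES2-high and FOLR1-high, CD24, APEX1 and CXCR4 were at least 2 times as high in FOLR1-high.

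The 8 chromatin partners all reached 50 counts, and RB1 was the only one past a ratio of 2 in any pair, where 36% to 37.2% of all genes were. It had 73.8 CPM in ERBB2-high, 44.3 in RARRES2-high and 17.9 in FOLR1-high. RB1, a cell cycle inhibitor, falls outside the naming rule and is named because of this count. The histone chaperone NPM1 had 1395, 1801 and 2515 CPM and nucleolin (NCL) 955, 942 and 810 CPM. The acidic histone chaperones ANP32B and SET had 474, 466 and 451 CPM and 408, 427 and 310 CPM. PARP1, which marks DNA breaks, had 202, 179 and 312 CPM, and topoisomerase TOP2A had 289, 213 and 212 CPM.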

How the data were processed

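The PromethION matrix holds estimated counts per transcript and barcode, which the authors deposited without normalisation. The submitters' processing notes name Cell Ranger 6.0.1 and GRCh38 with no role, and the series text names Isosceles. Not given in the sources used here are the aligner, the Isosceles version and the treatment of molecular identifiers. Members and lists were chosen with earlier results of these data known. Counts were summed per gene name and divided by all counts of a line. Sums were rounded for intervals (scipy 1.17.1, numpy 2.4.6, Python 3.11.15). A count was taken as whole within 1e-06. No doublet caller was used, since doublets of different lines fall to the marker rule, and Scrublet in scanpy 1.11.5 (expected rate 0.02) was an alternative that called 77 of 2462 barcodes. TMM factors came from edgeR 4.0.16. Beside the members, up to 6 genes per list were named, by their highest CPM in any line, and the 5 genes most like a member; 1 listed gene is not reported here. Other alternatives changed the count minimum, the marker share, the totals and the limits. Scripts were tested on simulated data.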

Additional observations from a re-analysis of the deposited data

How the results depend on the processing

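Alternatives were run for the ratios of members between lines and of G2/M-high over low barcodes, for the largest transcript share differences, and for the counts of members past a limit, and not for other values; the same G2/M range, thinned classes, a G2/M list without TOP2A, MKI67 and CENPF, and the split of FOLR1-high were added after the data were seen. Of the counts of members past a limit, 71 stayed within 1.5 times and 20 moved. Of single values, 342 stayed within their interval, 58 left it, and 1 that was past its limit reversed. Counting values below the limits, direction changed in 3 ratios between lines (HMGB3, HMGB2 and HMGA2, given above), in 6 values of class ratios, all of HMGA1 or HMGA2, and in 2 share differences. The number of members past a ratio of 2 went from 1 to 2 between ERBB2-high and RARRES2-high with the mean CPM of single barcodes and with a limit of 1.5. Between RARRES2-high and FOLR1-high it went to 2 with 90% of the marker counts, without mitochondrial and ribosomal protein genes, with TMM, with a limit of 1.5 and with the CXCL14 subset of FOLR1-high. Members higher in G2/M-high went from 0 to 2 in RARRES2-high with a limit of 1.5 and with classes thinned to 2000 counts, where the HMGB2 ratio was 2.33, and from 2 to 1 in FOLR1-high with thinning. Members past 10 points of transcript share went, between ERBB2-high and FOLR1-high, from 1 to 2 with 90% of the marker counts, without the 5% deepest barcodes and with whole counts only, and to 3 with a limit of 5 points. Between ERBB2-high and RARRES2-high they went from 2 to 0 with 90% of the marker counts and to 1 without the deepest barcodes, with whole counts only and in barcodes with exactly 1 count of the gene (too few for HMGA1). Between RARRES2-high and FOLR1-high they went from 2 to 1 with whole counts only and in barcodes with exactly 1 count, where HMGA1 had too few counts to be compared. The HMGA1 share difference of ENST00000311487, ERBB2-high minus RARRES2-high, reversed from -10.2 to 3.53 points with whole counts only. Apart from the limits themselves, the cause of these moves was not tested. The alternative that adds entries joining a member with an overlapping gene under 1 name could not be run, since no entry of the table has such a name. No paired analysis was possible because each platform has 1 library and the results come from no test. HMGA2, with 146 counts in its lowest line, is the member most limited by depth.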

Other observations

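The 333 barcodes under 1000 counts, left out of every line, held 110420 counts and had 27.4% of them in mitochondrial genes. They had 34 HMGA1 counts (308 CPM, 213 to 430), 102 HMGB1 counts (924 CPM, 753 to 1121), 16 HMGB2 counts (145 CPM, 82.8 to 235), 12 HMGB3 counts and 6 HMGA2 counts. The HMGA1, HMGB1 and HMGB2 levels lie below those of all barcodes of at least 1000 counts, 486, 1450 and 331 CPM. Part of this lies in the mitochondrial share of the totals. Without mitochondrial and ribosomal protein genes they were 526 against 636, 1577 against 1898 and 247 against 433 CPM, with no intervals computed. The 35 deeper barcodes with no marker count had 28 HMGB2 counts (276 CPM, 183 to 399) and 11 HMGA1 counts (108 CPM, 54.1 to 194).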
